A study of Drosophila melanogaster with 3 samples.

Results

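The left arm of chromosome 2 (2L) of Drosophila melanogaster held 755 of the 4230 sites at which ORC2 was mapped in S2-DRSC cells, a male line derived from late embryos. The sites are all peaks on 2L in the authors' list for the whole series, which holds the places called in both ORC2 samples. Chromatin of asynchronous cultures was cross-linked and precipitated with a crude rabbit polyclonal antibody raised against purified full-length ORC2, and sequenced (ChIP-seq). The 2 ORC2 samples came from separate extractions and are called replicate 1 and replicate 2. Replicate 1 had 1246 of its 6834 peaks on 2L, and replicate 2 had 1306 of 7389. The third sample was input DNA, for which no peak list was used here. Separate cultures are not named in the labels, and differences between the replicates may be technical. The lists give no read counts, so the depth behind a peak is unknown. No treatment or second condition was labelled, and what follows describes 1 state of 1 cell line.

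ORC2 belongs to the origin recognition complex (ORC), which sits on DNA before S phase and loads the replicative helicase at places where replication can start. In animals the complex shows little preference for a fixed DNA sequence, and in flies it is known for lying in open chromatin, often near active promoters. Euchromatin rich in active genes tends to replicate early in S phase, and long repressed stretches tend to replicate late. Release 5 coordinates of 2L run from the telomere, the distal end, to the centromere, the proximal end. The arm also carries the tandemly repeated histone genes, and in such repeats short reads often cannot be placed.

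Sites were spread over nearly all of 2L but in a patchy way. They began at base 66767 and ended at base 22961230, at a density of 32.9 per Mb, and covered 195821 bp, or 0.853% of the arm. The other 4 large arms (2R, 3L, 3R and X) together had 35.5 sites per Mb covering 0.908%, and singly 33.2 to 38.3 per Mb. In the whole-series list the density on 2L was thus the lowest of the 5. The distance from 33.2 per Mb on the X and on 3L was small, and none of these differences was tested. The single lists had 54.3 peaks per Mb (replicate 1) and 56.9 peaks per Mb (replicate 2) on 2L, against 55.3 and 60.6 on the other large arms. In neither sample was 2L the lowest. Replicate 1 had 51.8 on the X and 54.0 on 3L, and replicate 2 had 56.4 on 3L. The copy number of 2L in these cells was not examined.

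In consecutive windows of 100 kb, 2L had 3.28 ± 3.08 sites (SD, n = 230 windows). Windows with 8 or more sites are called site-rich here. There were 29 of them (12.6% of windows), against 11.9% of the windows of all 5 large arms, and these held 270 of the 755 sites (35.8%). At the other end, 46 windows (20%) had no site, against 19.4% over the 5 large arms, and a further 43 had 1. Counting down from the fullest window, 50% of the sites were reached after 47 windows (20.4%), compared with 19.6% of windows on the other large arms. The unevenness of 2L was thus close to that of the other arms by these measures. Its variance over mean was 2.90, the lowest of the 5 arms, which otherwise ranged from 3.23 on 2R to 3.77 on the X. In replicate 1 the value of 2L was also the lowest (3.38), but in replicate 2 it was 4.42, above the 3.98 of 2R.

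**Figure D1:**
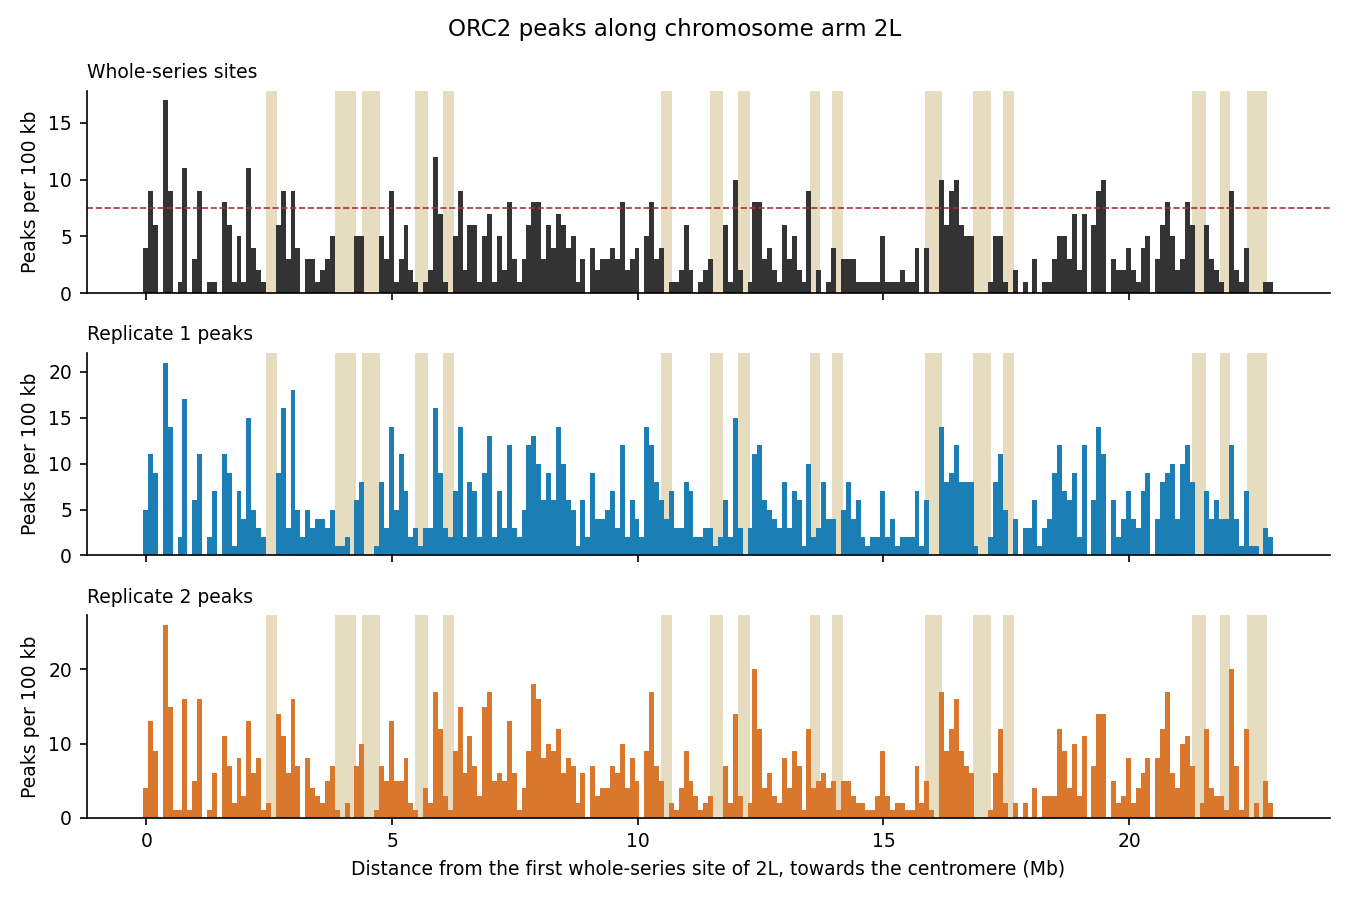
Peaks per 100 kb window along 2L in the whole-series list and in each sample, against the distance from the first site towards the centromere in Mb. Shaded bands are the 16 stretches of 200 kb or more without a whole-series site, and the dashed line separates the 29 windows with 8 or more sites; the fullest window, with 17 sites, lies close to the distal end.

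Site-rich windows were mostly islands of 1 window. They fell into 24 separate places, of which 19 were 1 window long and 5 were 2 windows long, and none was longer. These places depend on the limit and on where windows start. From 16200001 to 16900000 the counts were 10, 6, 9, 10, 6, 5 and 5, a dense block that the limit splits. Windows shifted by 50 kb gave 22 site-rich windows in place of 29. The count in a window said little about the count next to it: over 229 pairs of neighbouring windows Spearman's rho was 0.137, and over 228 pairs 200 kb apart it was -0.0170, as a description of 1 arm. The same value for neighbours was between 0.0911 (3R) and 0.280 (X) on the other large arms.

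The fullest stretch of the arm was the domain from 400001 to 600000, near the telomere. It had 26 whole-series sites, with 35 peaks in replicate 1 and 41 in replicate 2, and its sites covered 4.13% of its bases. Its first window alone, 400001 to 500000, had 17 sites (21 peaks in replicate 1 and 26 in replicate 2), the most of any window on 2L. Both windows that flank the domain had no site. The median score there was 3.11, below the 3.72 of the arm, so the crowding was not one of high scores. Most sites of the first window had a neighbour under 1 kb away, and every site was counted singly. With sites less than 1 kb apart merged into 1, the arm had 9 site-rich windows in place of 29.

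The other 4 domains of 2 windows lay along the length of the arm. At 16400001 to 16600000 there were 19 sites (21 and 28 peaks in replicates 1 and 2), and at 19400001 to 19600000 there were also 19 (25 and 28). The domains at 7900001 to 8100000 and at 12400001 to 12600000 had 16 sites each, with 23 peaks in replicate 1 for both, and 34 and 32 in replicate 2. In all 5 domains each replicate had more peaks than the whole-series list. A site needs a peak of each sample, so these counts could hardly be lower and are no separate support for the domains. After the window at 400001, the fullest windows were 5900001 to 6000000 with 12 sites (16 and 17 peaks), 800001 to 900000 with 11 (17 and 16), 2100001 to 2200000 with 11 (15 and 13), and 12000001 to 12100000, the first of 4 windows with 10 (15 and 14). The window at 12000001 had wide sites, with a median of 518 bp against 193 bp over the arm.

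Within windows, sites also came in tight runs. Of 754 distances between neighbouring sites, 142 (18.8%, exact binomial 95% interval 16.1 to 21.8%) were under 1 kb, against 18.5% on the other large arms. The median distance was 10657 bp on 2L, with an interquartile range of 1874 to 31540 bp, and 9231 bp on the other large arms. Joining sites less than 1 kb apart left 613 places, made of 510 lone sites and 103 runs that held 245 sites. Most runs were pairs (73) or triplets (23). The run with most sites had 6, at 5977636 to 5983018, where 3082 of 5383 bp lay in sites; replicate 1 had 6 peaks there and replicate 2 had 7. A further 6 runs had 4 sites each. The first 2 of these in order along the arm, both with 4 peaks in each sample, were at 490159 to 492494, inside the fullest window, and at 8083346 to 8087203.

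Long stretches without a site lay between these islands. There were 16 of at least 200 kb, adding up to 4.49 Mb or 19.5% of the arm, and the longest was 437 kb. On the other large arms such stretches took 14.8% (2R), 20.5% (3L), 13.2% (3R) and 24.6% (X). The longest on 2L was shorter than the longest on 2R (824 kb), 3L (769 kb) and X (612 kb), and slightly longer than that on 3R (422 kb).

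The 8 longest were found in the body of the arm as well as near the centromere. The first ran from 3896197 to 4332708 (437 kb) and had 4 peaks in each sample, none of which touched. Shortly after it came 4459925 to 4810138 (350 kb), with 1 peak in replicate 1 and 2 in replicate 2. The second longest, 22467306 to 22874980 (408 kb), was the one nearest to the centromere and had 4 and 7. The third, 16889026 to 17260647 (372 kb), had 2 and 1, and within it 309 kb in a row had no peak in either sample. The stretch at 15914094 to 16251649 (338 kb) had 2 peaks in each sample. Those at 21344698 to 21623545 (279 kb) and 11528283 to 11806264 (278 kb) had 0 and 3, and 3 and 0 peaks in replicates 1 and 2. The eighth, 5528135 to 5799573 (271 kb), had 4 and 3. All 16 stretches had at least 3 peaks over the 2 lists, with 10.5 peaks per Mb in replicate 1 and 10.3 in replicate 2. A peak inside such a stretch is by construction one found in 1 sample only. The 54.3 and 56.9 peaks per Mb of the whole arm include peaks found in both samples and are no like measure. Of the peaks found in 1 sample only, the stretches held 47 of 481 in replicate 1 and 46 of 542 in replicate 2, in 19.5% of the arm. Coverage of these stretches by short reads was not tested, nor was the place of the histone repeats among them.

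Some dense places had such a stretch on either side. The Mb from 16000001 to 17000000 had 51 sites (68 and 77 peaks in replicates 1 and 2), all of them between the stretches of 338 kb and 372 kb. The Mb that followed it, 17000001 to 18000000, had the fewest sites of any full Mb, 15 (33 and 25 peaks). The Mb with most was the first, 1 to 1000000, with 57 (79 and 86 peaks). The window at 5900001, with 12 sites, likewise lay between the stretch that ended at 5799573 and one of 224 kb that began at 6100361. It did not border on them, since the windows before and after it had 2 and 7 sites. Over 23 bins of 1 Mb, the last of them slightly shorter, the count ran between 15 and 57 with a median of 32. The median score per bin stayed between 2.99 and 4.33 and the median width between 152 and 274 bp.

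The 2 Mb at the distal end were denser than the 2 Mb at the proximal end, in the whole-series list and in each sample. The distal part had 91 sites, or 45.5 per Mb (exact Poisson 95% interval 36.6 to 55.9). The middle of the arm had 615, or 32.4 per Mb (29.9 to 35.1), and the proximal part 49, or 24.5 per Mb (18.1 to 32.4). In replicate 1 these parts had 66.5, 53.8 and 46 peaks per Mb, and in replicate 2 they had 71, 55.8 and 53. At this setting the order was the same in all 3 lists, while the distal part was 1.86 times as dense as the proximal in the whole-series list, 1.45 times in replicate 1 and 1.34 times in replicate 2. Sites covered 1.14% of the distal, 0.845% of the middle and 0.634% of the proximal part.

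The contrast between the ends was largest at the very tips, and it did not form a steady gradient. With ends of 1 Mb the distal part had 57 sites per Mb and the proximal 18, with 32.4 between them. With ends of 4 Mb the densities were 39.5 per Mb in the distal part, 31.1 in the middle and 33 in the proximal part, so that the middle was the sparsest. The middle was also lowest in each sample at that setting, with 60, 53.0 and 53.25 peaks per Mb in replicate 1 and 64.75, 53.8 and 60.5 in replicate 2. Among the 20 distal windows 6 were site-rich and 5 were empty, and among the 20 proximal windows 2 were site-rich and 6 were empty. At ends of 2 Mb, a distal end denser than the proximal one was also seen on 2R (43.5 and 9 sites per Mb), 3L (47 and 10) and the X (25 and 19), but not on 3R (36 and 41.5). With ends of 4 Mb the values on 3R were 40.25 and 34. These are single values per arm, and no difference between arms was tested.

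**Figure D2:**
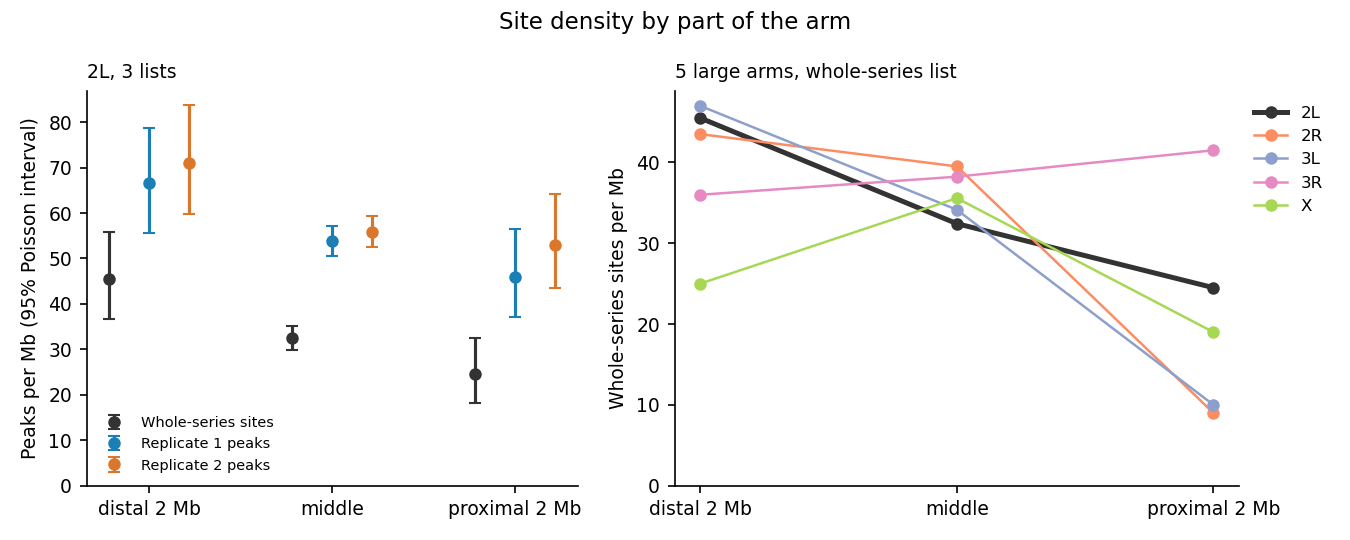
Left, peaks per Mb with exact Poisson 95% intervals in the distal 2 Mb, the middle and the proximal 2 Mb of 2L, for the whole-series list and each sample. Right, whole-series sites per Mb in the same parts of the 5 large arms, where 2L drops from 45.5 over 32.4 to 24.5 towards the centromere and 3R ends higher than it began.

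At the same ends of 2 Mb the samples also differed in how often their peaks met. Replicate 1 peaks touched a peak of replicate 2 in 69.2% of cases in the distal part (exact binomial 95% interval 60.6 to 76.9%), in the middle in 61.1% (58.0 to 64.1%) and in the proximal part in 53.3% (42.6 to 63.7%). In replicate 2 the shares that touched a replicate 1 peak were 65.5% (57.1 to 73.3%), 58.8% (55.8 to 61.8%) and 46.2% (36.5 to 56.2%). The whole-series density, which counts only peaks found in both, differed more between the ends than that of either sample. Proximal peaks were narrower in the single lists, with medians of 87.5 and 83.5 bp against 106 bp in each sample for the distal part, and the part of width in these shares was not tested. With ends of 4 Mb the replicate 1 shares were 67.9% in the distal part, 59.0% in the middle and 62.9% in the proximal part. The order thus changed in that sample, while replicate 2 kept it with 63.3%, 58.1% and 54.5%. With ends of 1 Mb both samples kept the order. The shares were then 73.4%, 60.9% and 51.4% in replicate 1, and 67.4%, 58.9% and 35.3% in replicate 2. In bins of 1 Mb the replicate 1 share was highest at 16000001 to 17000000 (75%) and lowest at 10000001 to 11000000 (44.4%). In replicate 2 other bins were the extremes. Its share was highest at 19000001 to 20000000 (69.5%) and lowest in the last bin, from 22000001 (36%). The median score of the sites was 3.49 in the distal, 3.74 in the middle and 3.62 in the proximal part.

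The width of a 2L site had a median of 193 bp (interquartile range 131 to 319 bp), against 188 bp (128 to 314.5 bp) on the other large arms. Most were narrow: 77 sites were under 100 bp, a further 309 (40.9%) under 200 bp and a further 249 under 400 bp. The other sites comprised 111 under 1000 bp and 9 of 1000 bp or more. In the single lists the medians were 100 bp (replicate 1) and 102.5 bp (replicate 2). A whole-series site reaches from the outermost left to the outermost right edge of its peaks in both samples.

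Scores had a median of 3.72 (interquartile range 3.0 to 4.58) on 2L, against 3.67 (2.95 to 4.77) on the other large arms, and ran from 1.55 to 16.2. Score is a number per peak from the authors' caller, and it was used only to describe and rank peaks. Width and score were nearly unrelated over the 755 sites, with a Spearman's rho of 0.0179. Within the samples rho was 0.154 in replicate 1 and 0.241 in replicate 2, over peaks that share a library. The arm held 17.8% of all sites of the series. Among the 50 highest-scoring sites of the series 7 were on 2L (14%, exact binomial 95% interval 5.82 to 26.7%), among the first 100 it had 9 (9%, 4.2 to 16.4%), and among the first 500 it had 68 (13.6%, 10.7 to 16.9%).

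Crowded sites were wider, whereas the relation of score to crowding depended on how crowding was measured. The 245 sites with a neighbour under 1 kb away had a median width of 234 bp, the 296 with the nearest at 1 to 10 kb had 192.5 bp, and the 214 at 10 kb or more had 174 bp. On the other large arms these medians were 217.5, 184 and 168 bp. The median scores of the same 3 classes on 2L were 3.75, 3.63 and 3.77. Over the 23 bins of 1 Mb, Spearman's rho between the count of sites and their median score was 0.0386. In site-rich windows the median width was 233 bp, against 182 bp in the other windows. The median score was 3.57 (interquartile range 2.90 to 4.40) for the 270 sites in site-rich windows, against 3.81 (3.09 to 4.72) for the 485 elsewhere, so the ranges overlapped widely. The 43 sites that were alone in their window had a median score of 4.10. The 76 highest-scoring sites of 2L lay a median of 9272 bp from their nearest neighbour, against 3475 bp for all sites of the arm. Of these 76 sites 20 lay in site-rich windows, which held 35.8% of all sites of the arm. The highest score inside a site-rich window was 9.13, so that the 10 highest-scoring sites of 2L, described next, all lay outside them.

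**Figure D3:**
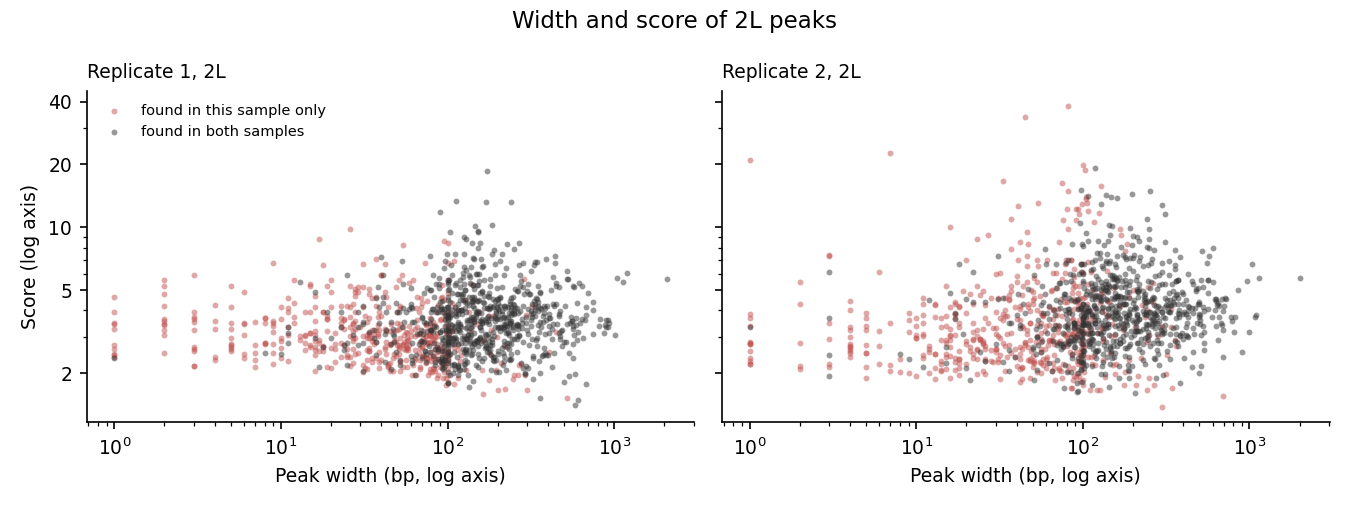
Width in bp and score of each 2L peak in replicate 1 (left) and replicate 2 (right), both on log axes, coloured by whether the peak was found in that sample only or in both. Narrow peaks were mostly found once, and only replicate 2 has a group of peaks found once with scores over 10, 27 in all.

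The highest-scoring site of 2L was at 7856492 to 7856664 (173 bp), where replicate 1 scored 18.7 and replicate 2 scored 13.8. It ranked 1 among the 2L peaks of replicate 1 and 19 among those of replicate 2. The site at 17368621 to 17368739 (119 bp) scored 11.8 and 19.3 in replicates 1 and 2, 1.63-fold apart, and lay in the sparse Mb that followed the dense one. The site at 2376202 to 2376455 (254 bp) scored 13.2 and 14.9. Both samples thus placed these 3 among their top 20, though in different order.

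The samples were closest to each other at the next 2 sites. The one at 7641734 to 7641871 (138 bp) scored 13.4 in replicate 1 and 14.3 in replicate 2 and was 59645 bp from its nearest neighbour, and the one at 8690487 to 8690664 (178 bp) scored 13.2 and 14.0, with a neighbour 394 bp away. The next 3 scored higher in replicate 2. The site at 17784737 to 17784934 (198 bp) scored 9.49 and 14.5. Those at 6971849 to 6972002 (154 bp) and 6557468 to 6557596 (129 bp) scored 9.56 and 14.1, and 9.54 and 13.0. The tenth, at 7281563 to 7281706 (144 bp), scored 8.95 and 10.3. All but 1 of the 10 sites were narrower than 300 bp, and 5 of them lay between 6557468 and 7856664.

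The ninth was the exception among them. At 13215737 to 13216055 (319 bp) replicate 1 had a peak of 310 bp with a score of 4.79, which ranked 182 on the arm, and replicate 2 had a peak of 97 bp with a score of 15.1, which ranked 11. The peaks overlapped by 88 bp. Its place among the 10 thus rests on replicate 2.

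The widest sites ranged from low to fairly high scores. The widest, at 3057908 to 3060557 (2650 bp), had a score of 2.50 and joined 3 peaks of each sample. The fourth widest, at 3046513 to 3047708 (1196 bp; 6.01 and 6.67 in replicates 1 and 2), lay in the same 100 kb window, of which sites covered 6.09%. By contrast, the second widest, at 19574963 to 19577032 (2070 bp), was 1 unbroken peak in each sample, with scores of 5.64 and 5.74, and 97.3% of its length was covered by both. The third, at 12003030 to 12004237 (1208 bp), joined 2 peaks of replicate 1 and 1 of replicate 2, and the fifth, at 21828057 to 21829219 (1163 bp), scored 5.50 and 5.75. That last site is a wide one in the sparse proximal part, 69981 bp from its nearest neighbour.

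The most isolated sites covered a range of scores. The one at 17963183 to 17963392 was 174598 bp from its nearest neighbour and scored 4.37 in replicate 1 and 5.59 in replicate 2. The one at 14851798 to 14851940, 143618 bp away from any other, scored 7.16 and 7.41, and 97.9% of it was covered by both samples. The third, at 18319915 to 18320191, scored 2.19 and 2.59 and was 122848 bp away.

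Where both samples had a peak, they scored the sites broadly alike across the arm. Peaks found in 1 sample only are outside this comparison. For the 739 sites made of 1 peak from each sample, the median score was 3.86 in replicate 2 and 3.49 in replicate 1, and the log2 ratio of replicate 2 over replicate 1 had a median of 0.13 with an SD of 0.35 over sites. Replicate 2 was higher at 493 of them (66.7%), against 60.7% on the other large arms. The median of these log2 ratios was above 0 in all 23 bins of 1 Mb and lay between 0.03 and 0.26. The scores were over 1.5-fold apart at 78 sites (10.6%), where the share over all sequences was 11.2%, and over 2-fold apart at 10 (1.35%), where it was 0.972%. Spearman's rho between the samples was 0.755 over these 739 sites, which share the caller and perhaps the control.

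**Figure D4:**
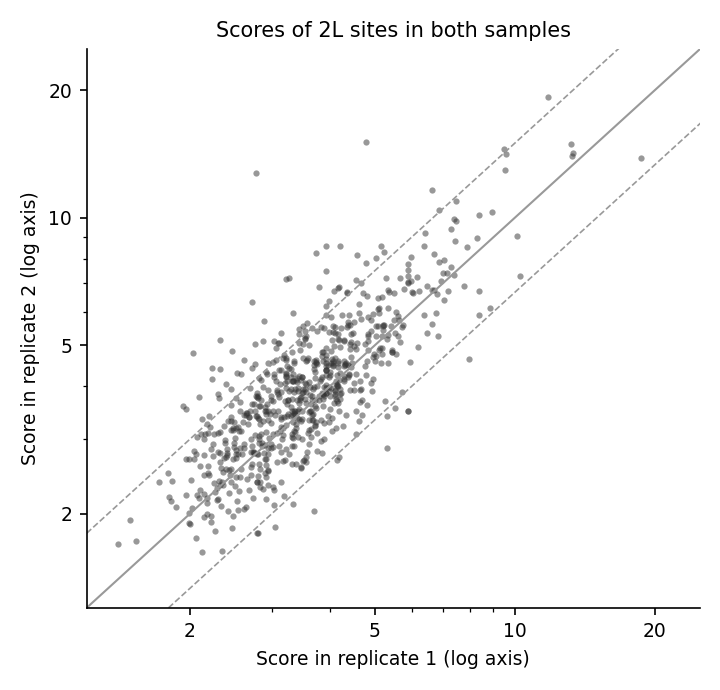
Score in replicate 2 against score in replicate 1 for the 739 sites of 2L made of 1 peak from each sample, on log axes. The solid line marks equal scores and the dashed lines 1.5-fold differences; 78 sites lie outside the dashed lines.

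The 10 sites with scores over 2-fold apart were all higher in replicate 2. At 12520331 to 12520627 the score was 12.8 in replicate 2 and 2.78 in replicate 1 (4.58-fold), and the replicate 1 peak was 31 bp of the 297 bp. The ninth-ranked site above followed (3.15-fold), and then 14287978 to 14288213 with 4.79 in replicate 2 and 2.03 in replicate 1. In the other direction the differences were smaller, at 3144800 to 3144941 (5.30 in replicate 1 and 2.86 in replicate 2), 8535689 to 8535861 (3.70 and 2.03) and 3813410 to 3813561 (7.97 and 4.63). Edges were placed closely: the left ends differed by a median of 23 bp and the right ends by 23 bp. A median of 67.2% of a site's length (interquartile range 44.7 to 84.1%) was covered by both samples.

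On 2L, 765 of 1246 replicate 1 peaks touched one of replicate 2 (61.4%, exact binomial 95% interval 58.6 to 64.1%), where the share over all sequences was 62.9%. In replicate 2, 764 of 1306 (58.5%, 55.8 to 61.2%) touched a replicate 1 peak, where it was 58%. On the other large arms the shares were 65.3% and 59.4%. Width went with this share in each sample. The share found in both samples was 17.7% of the replicate 1 peaks under 50 bp, 42.8% from 50 to 99 bp, 86.4% at 100 bp or more but under 200 bp, and 96.7% from 400 bp upwards. In replicate 2 the shares for the same widths were 13.5%, 44.8%, 77.6% and 98.9%. For replicate 1 the shares on 2L and on the other large arms were 17.7% and 22.3% under 50 bp, 42.8% and 50.7% from 50 to 99 bp, and 86.4% on each from 100 bp to under 200 bp. For replicate 2 they were 13.5% and 17.7% under 50 bp, and 44.8% and 42.4% from 50 to 99 bp, so the second pair ran the other way. No difference between arms was tested here.

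**Figure D5:**
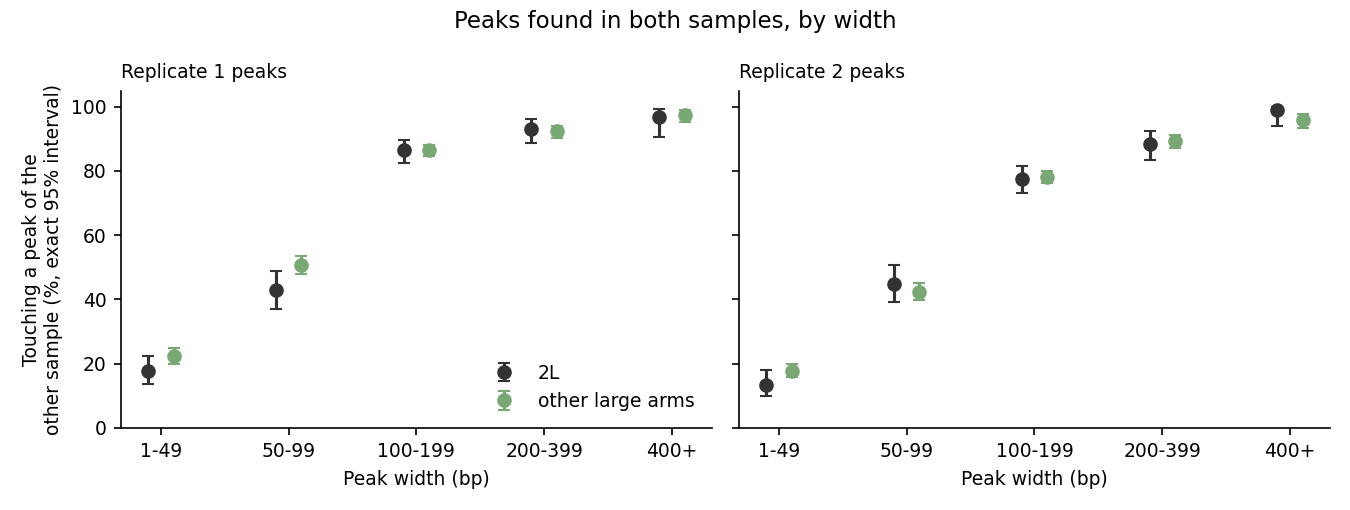
Percentage of peaks that touch a peak of the other sample, by width in bp, for 2L and for the other 4 large arms, with exact binomial 95% intervals. On 2L the share rises with width to 96.7% in replicate 1 and 98.9% in replicate 2 at 400 bp or more.

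The remaining 2L peaks, 481 in replicate 1 and 542 in replicate 2, were found in 1 sample only. They were narrow: the median width was 44 bp in replicate 1 and 51 in replicate 2, against 151 and 156 bp for peaks found in both. Their median scores were 2.95 in replicate 1 and 3.10 in replicate 2, against 3.49 and 3.85 for peaks found in both. Some lay close to sites: 81 of 481 (16.8%) in replicate 1 and 138 of 542 (25.5%) in replicate 2 were within 1 kb of a whole-series site, a zone that takes up 5.50% of the arm. A further 218 (45.3%) and 158 (29.2%) lay 10 kb or more from any site. The share of the arm that lies so far from sites was not measured, so these 2 shares cannot be called high or low. On the other large arms the peaks found once in replicate 1 were within 1 kb in 21.9% and 10 kb or more away in 34.1%. In replicate 2 these shares were 26.1% and 31.2%, so that the share at 10 kb or more was higher on 2L in replicate 1 and lower on 2L in replicate 2.

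The highest scores of replicate 2 on 2L belonged to peaks that replicate 1 did not have. Scores over 10 were given to 27 peaks found in replicate 2 only and to 15 of its peaks found in both samples. In replicate 1 there were 0 such peaks found in that sample only and 7 found in both. On the other large arms these counts were 90 and 99 in replicate 2, and 40 and 56 in replicate 1. The highest on 2L were at 13244346 to 13244426 (81 bp, score 38.3), 13500582 to 13500626 (45 bp, 33.6) and 283291 to 283297 (7 bp, 22.8), all above the 19.3 that was the highest score of a replicate 2 peak found in both. The 27 peaks were 1 to 128 bp wide, lay in 15 of the 23 bins of 1 Mb with at most 4 in a bin, and 3 of them were within 1 kb of a whole-series site. This count was drawn up after the values were seen.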

How the data were processed

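Lists of ORC2 ChIP-seq peaks of S2-DRSC chromatin were used, 1 per sample and 1 of the whole series. Positions follow FlyBase release 5, per the file headers, and the source column of each peak reads PeakSeq, a caller that sets ChIP reads against control reads. The authors deposited a score per peak without its definition. Aligner, caller version, threshold and control are not stated in the sources used here. Peaks were called per sample, since peak names carry the replicate number. The whole-series list was checked on 2L: all 755 sites ran exactly from the first to the last base of touching peaks of both samples, and in 739 of 739 sites with 1 peak from each the score was their mean to within 1e-05.

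Peaks were assigned to windows by their centre. Overlap meant at least 1 bp in common. The arm length was set to base 22965910, where the last peak in the 3 lists ends. Intervals are exact binomial for shares and exact Poisson for densities (95%). They cover counting only, and they are too narrow because peaks lie in clusters. Every comparison is a description, with no test, since there is 1 condition and 2 samples. Alternatives were each sample's list alone, the 50% of peaks with the highest scores, merged neighbours, other window placements, end lengths and thresholds, and other rules of overlap. Named regions were the 10 highest-scoring and 5 widest sites, the 5 fullest windows, all site-rich domains of 2 or more windows, the 8 longest site-free stretches, the 3 runs with most sites, the 3 most isolated sites, the 3 most discordant sites in each direction, and the Mb with most and fewest sites. The arm, the lists and these rules were chosen with earlier results of these data known. The measures were tested on simulated positions with known answers. The base composition planned for the sites was not run, and no genes were assigned, because the gene table at hand is of release 6. Calculations used Python 3.11.15 with scipy 1.17.1, numpy 2.4.6 and pandas 2.3.3, and figures matplotlib 3.10.9.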

Additional observations from a re-analysis of the deposited data

How the results depend on the processing

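All values are descriptions with no test. Using the list of 1 sample alone (without replicate 1 or without replicate 2) gave 54.3 to 56.9 peaks per Mb in place of 32.9, a distal minus proximal difference of 18 to 20.5 per Mb in place of 21, 65 to 67 site-rich windows in place of 29, 24 to 30 empty windows in place of 46, 6 stretches of 200 kb or more in either case in place of 16, 20.9 to 25.4% of distances under 1 kb in place of 18.8%, a median width of 100 to 102.5 bp in place of 193 bp and a median score of 3.27 to 3.598 in place of 3.72. The single lists hold more peaks by construction. With only the higher-scoring 50% of the whole-series list, 2L had 16.7 sites per Mb, a distal minus proximal difference of 7.5, 0 site-rich windows, 75 empty windows, 27 long stretches, 12.3% of distances under 1 kb and a median width of 190 bp. With peaks less than 1 kb apart merged there were 26.7 sites per Mb, a difference of 13 and 9 site-rich windows. The distal minus proximal difference was 39 with ends of 1 Mb, 6.5 with ends of 4 Mb and 0.507 percentage points as bases covered, and stayed positive in every alternative run for it. A limit of 10 sites left 8 site-rich windows, and a limit of 150 kb gave 29 stretches. Requiring that 50% or more of each peak overlap lowered the share found in both samples to 44.1% in replicate 1 and 42.1% in replicate 2. Centres within 500 bp raised it to 68.6% and 67.4%. The higher-scoring 50% of both lists gave 60.9% in replicate 1, in place of 61.4%, and 52.8% in replicate 2, in place of 58.5%. For these shares the cause was not tested. Of 42 alternatives over 11 results, 9 stayed within the spread between samples, the counting interval, 1.5-fold for counts, or, for the ratio of scores, 1 SD over sites. Among them were 3 of the values above from replicate 1 or 2 alone (20.5 per Mb, 20.9% and 3.598). No paired analysis was possible because the ORC2 samples form 1 group and no peak list of the input was used. Without read counts, peaks found in 1 sample cannot be weighed by depth.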
